A study of Arabidopsis thaliana with 16 samples.

Results

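The cytosolic HSP70 and HSP90 chaperone genes of Arabidopsis thaliana and the seed heat shock factor HSFA9 were described across 4 genotypes of mature dry seed. The 10 genes were chosen by locus identifier from the 37336 loci of the count files, by a rule that uses no measured value. They are 5 cytosolic HSP70 genes (HSP70-1, HSP70-2, HSP70-3, HSP70-4 and HSP70-5), 4 cytosolic HSP90 genes (HSP90.1, HSP90.2, HSP90.3 and HSP90.4) and HSFA9. Of these, 9 passed the filter on low counts, as did 10251 genes in all, and HSP70-2 did not.

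RNA was measured by 3′RNA-Seq, in which reads start from the poly(A) end of each transcript, in 16 libraries, 4 of each genotype. The mutants were brm-3, an insertion mutant of the SWI/SNF chromatin remodelling ATPase BRM, dog1-4, an insertion mutant of the seed dormancy gene DOG1, and brm-3dog1-4, a cross of both. The wild type was Col-0, and the same greenhouse and long-day photoperiod are given for all 4 genotypes. Each mutation is carried by 1 insertion line, every cell carries it, and whole seeds were extracted, so embryo and endosperm were not separated. Fewer cells of a type and less RNA per cell cannot be told apart in such samples. The labels do not say whether the libraries of a genotype came from separate plants, so p-values measure the spread between these libraries, which may be technical.

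HSP70 proteins bind unfolded stretches of other proteins and release them with the use of ATP, and HSP90 proteins take over nearly folded clients, among them kinases, receptors and transcription factors. Heat shock factors bind heat shock elements in the promoters of chaperone genes, and in unstressed cells HSP70 and HSP90 hold some of these factors inactive. In late embryogenesis chaperone transcripts accumulate without heat, and HSFA9, a factor of the maturing embryo that acts downstream of the B3 factor ABI3, is known to activate seed chaperone genes.

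The genes were located in the TAIR10.1 annotation of RefSeq, and all 10 are protein-coding. HSP70-5 (AT1G16030, Hsp70b) lies at chr1:5501966-5504535 on the minus strand in 1 exon, and HSP70-4 (AT3G12580) at chr3:3991117-3993886 on the minus strand in 2 exons. HSP70-1 (AT5G02500, HSC70-1) at chr5:553745-556623 and HSP70-2 (AT5G02490) at chr5:550035-552827 are neighbours on the minus strand. HSP70-3 (AT3G09440) lies at chr3:2902355-2905947 on the minus strand, and HSP90.1 (AT5G52640) at chr5:21352557-21355147 on the plus strand. HSP90.4 (AT5G56000, minus strand, from 22677338), HSP90.3 (AT5G56010, plus strand) and HSP90.2 (AT5G56030, plus strand, to 22689671) form a cluster on chromosome 5. HSFA9 (AT5G54070) lies at chr5:21943983-21945651 on the plus strand in 3 exons.

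Paralogs of these families share most of their coding sequence, which bears on whether reads were assigned to the right gene. Coding identity was highest among HSP90.2, HSP90.3 and HSP90.4, at 94.3% to 95.7%, and was 87.5% between HSP70-1 and HSP70-2. Over the last 300 bases of the longest annotated transcript, where 3′ reads fall, these 3 HSP90 genes were 59.3% to 70.0% identical and HSP70-1 and HSP70-2 were 60.3% identical. None of the 251 windows of 50 bases in that stretch was found elsewhere in the genome for the 9 chaperone genes. In HSFA9, 71 of its 251 windows were found elsewhere. Its last exon overlaps U3D, a U3 small nucleolar RNA gene on the opposite strand. U3D itself had 11 counts over the 16 libraries. HSP70-3 overlaps AT3G09430 on the opposite strand, which had 35 counts in all, and a small nucleolar RNA gene with 0 counts, which allows up to 3 counts in all. The use of strand in counting is not given, so reads of such pairs cannot be told apart. The annotated model of HSP90.1 holds coding sequence only, so its 3′ reads may lie partly outside that model.

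Promoters were searched on both strands for the heat shock element of 2 units (GAANNTTC or TTCNNGAA), that of 3 alternating units, the RY element CATGCA that ABI3 binds, and ACGTG, the core of the abscisic acid response element. In the 1000 bases before the annotated start, the 2-unit element was in 2 of the 10 genes, HSP70-2 and HSP90.1, and in 52.4% of 27443 protein-coding genes. The 3-unit element was in HSP90.1 alone of the 10 and in 1.72% of all, the RY element in 4 of the 10 and 32.2% of all, and ACGTG in 6 of the 10 and 54.4% of all. A 3-unit match holds 2 overlapping 2-unit matches. Only exact matches upstream of the annotated start were searched, so elements with other letters or inside the transcript would be missed. In the 250 bases before the start, none of the 10 genes had an exact match to either form of the heat shock element. The 2-unit form was there in 16.1% of all genes. Within that window HSFA9 had the RY element, found in 8.43% of all genes, and HSP70-1 and HSP70-2 had ACGTG, found in 22.9%. The annotated model of HSP90.1 holds coding sequence only, so its positions are counted from the start codon. Its 250 bases may thus hold untranslated sequence, and the distance of its heat shock element from the true transcript start is not known here. A match describes the letters only, and these values say nothing of what binds there.

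**Figure D1:**
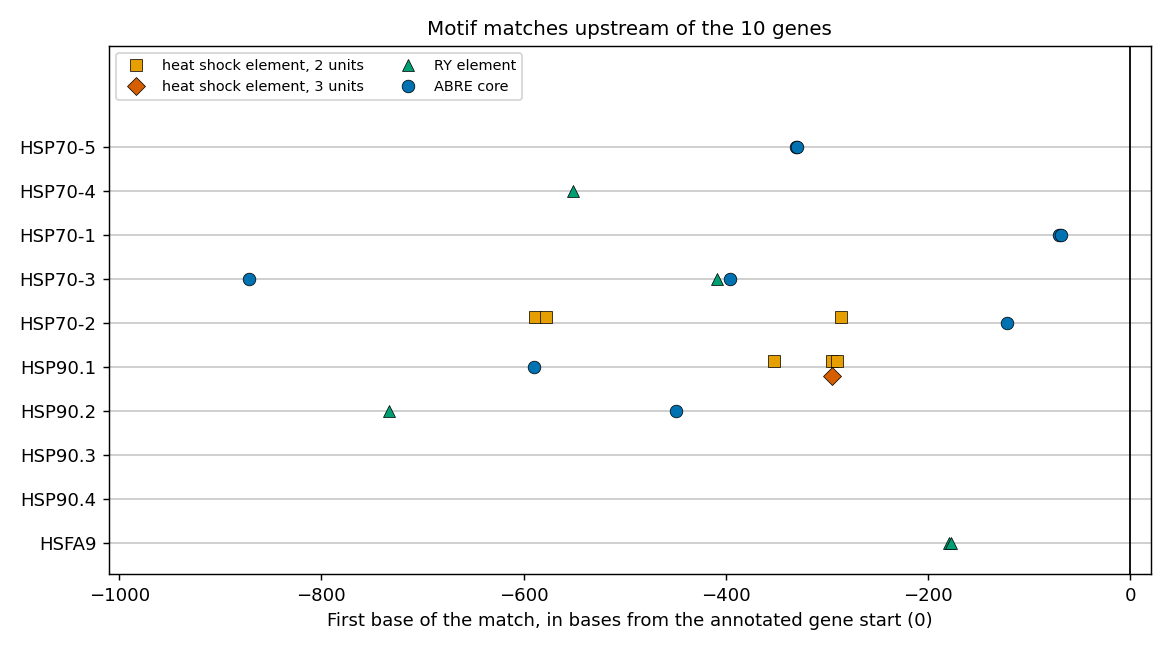
Position of each motif match in the 1000 bases upstream of the 10 genes, as the first base of the match in bases from the annotated gene start at 0. HSP90.1 carries the only 3-unit heat shock element, HSFA9 an RY element within 250 bases of its start, and HSP90.3 and HSP90.4 no match.

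Below, 100 bases are shown for HSP70-5, HSP70-1, HSP90.1 and HSFA9. A link of motif matches to RNA levels was not tested. The bases are read 5′ to 3′ on the strand of the gene from the TAIR10.1 genome of RefSeq, with the matches in capitals. For HSP70-5 (chr1:5504816-5504915, minus strand, first match at -331 from the start) and HSP70-1 (chr5:556644-556743, minus strand, first match at -70) the capitals mark ACGTG on both strands, which together read CACGTG. For HSP90.1 (chr5:21352207-21352306, plus strand, match at -295) they mark the 3-unit heat shock element, and for HSFA9 (chr5:21943753-21943852, plus strand, first match at -179) they mark CATGCA on both strands.
HSP70-5: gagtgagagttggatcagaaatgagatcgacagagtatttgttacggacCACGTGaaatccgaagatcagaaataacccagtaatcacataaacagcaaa
HSP70-1: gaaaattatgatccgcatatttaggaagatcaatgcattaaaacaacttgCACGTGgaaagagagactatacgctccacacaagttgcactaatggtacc
HSP90.1: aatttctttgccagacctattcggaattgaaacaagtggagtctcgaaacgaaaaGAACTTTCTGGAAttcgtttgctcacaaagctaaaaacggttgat
HSFA9: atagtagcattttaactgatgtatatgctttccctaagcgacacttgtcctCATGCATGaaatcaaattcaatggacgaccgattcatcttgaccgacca

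The libraries held 803578 to 2359673 counts, so 3 counts, taken as the floor of detection, are worth 0.964 to 3.87 CPM, that is counts scaled to a common library total. Replicates differed beyond sampling noise, with a chi-square per degree of freedom of 1.49 to 4.39, so each counted as a library of its own. The scaling used the trimmed mean of M values (TMM), and a gene is said to rise or fall at an adjusted p under 0.05 in the quasi-likelihood test of edgeR, with Benjamini-Hochberg correction over all tested genes. The floor covers counting error only, while the SE and 95% intervals of log2 fold changes come from the edgeR fit and hold the spread between libraries too. Since 3′ reads mark transcript ends, CPM were not divided by transcript length where genes are set side by side. DOG1 was lower by 4.74 on the log2 scale in dog1-4 than in Col-0, and BRM by 1.29 in brm-3 than in Col-0. The 11 seed markers, storage protein, oleosin and LEA genes, summed to 115994 ± 12599 CPM in brm-3, 123475 ± 21613 in dog1-4 and 87117 ± 10839 in the double mutant, against 127609 ± 18817 in Col-0 (SD, n = 4 each), so the sums of the single mutants lay within the SD of Col-0. Of the 11, 1 rose and 2 fell in brm-3, 1 rose and 3 fell in dog1-4, and 2 rose and 6 fell in brm-3dog1-4. The 5 leaf markers summed to 65.5 to 73.5 CPM in brm-3, 73.6 to 90.64 in dog1-4 and 111 to 180.0 in brm-3dog1-4, against 27.0 to 36.2 in Col-0. Of their 3 tested members, 2 rose in brm-3 and 3 in each of the other mutants. The part of these markers in the chaperone results was not tested. Library totals without TMM would shift the median gene by 0.03 in brm-3, 0.22 in dog1-4 and 0.58 in the double mutant on the log2 scale against Col-0.

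HSP70-5, a heat-inducible cytosolic HSP70, had the highest CPM of the 10 genes in Col-0 and fell in every mutant. Its CPM were 886, 882, 905 and 1292 in brm-3, 843, 904, 1089 and 1126 in dog1-4, and 304, 326, 324 and 274 in the double mutant, against 2361, 2733, 2381 and 2360.3 in Col-0. The 2 single mutants overlapped each other, while the double mutant lay below every other library and Col-0 above every other. Replicate 4 of brm-3 stood well above the other brm-3 libraries.

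The mean level was 991 ± 201 CPM in brm-3, 990.4 ± 138 in dog1-4 and 307 ± 24.0 in the double mutant, against 2459 ± 183 in Col-0 (SD, n = 4 each). The log2 fold change against Col-0 was -1.31 in brm-3 (SE 0.11, adjusted p = 6.71e-14), -1.31 in dog1-4 (SE 0.11, adjusted p = 1.66e-14) and -3.0 in the double mutant (SE 0.12, adjusted p = 1.5e-29). The double mutant was lower than brm-3 by a log2 fold change of -1.69 (adjusted p = 8.63e-19) and than dog1-4 by -1.69 (adjusted p = 4.49e-18). The double mutant change minus the sum of both single mutant changes, called the interaction here, was -0.38 with a 95% interval of -0.69 to -0.07, and did not pass the test (adjusted p = 0.121). Thus the fall in the double mutant was not shown to differ from the sum of the single mutant falls. Leaving out replicate 4 of brm-3 left that genotype at -1.46 against Col-0 on the log2 scale.

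**Figure D2:**
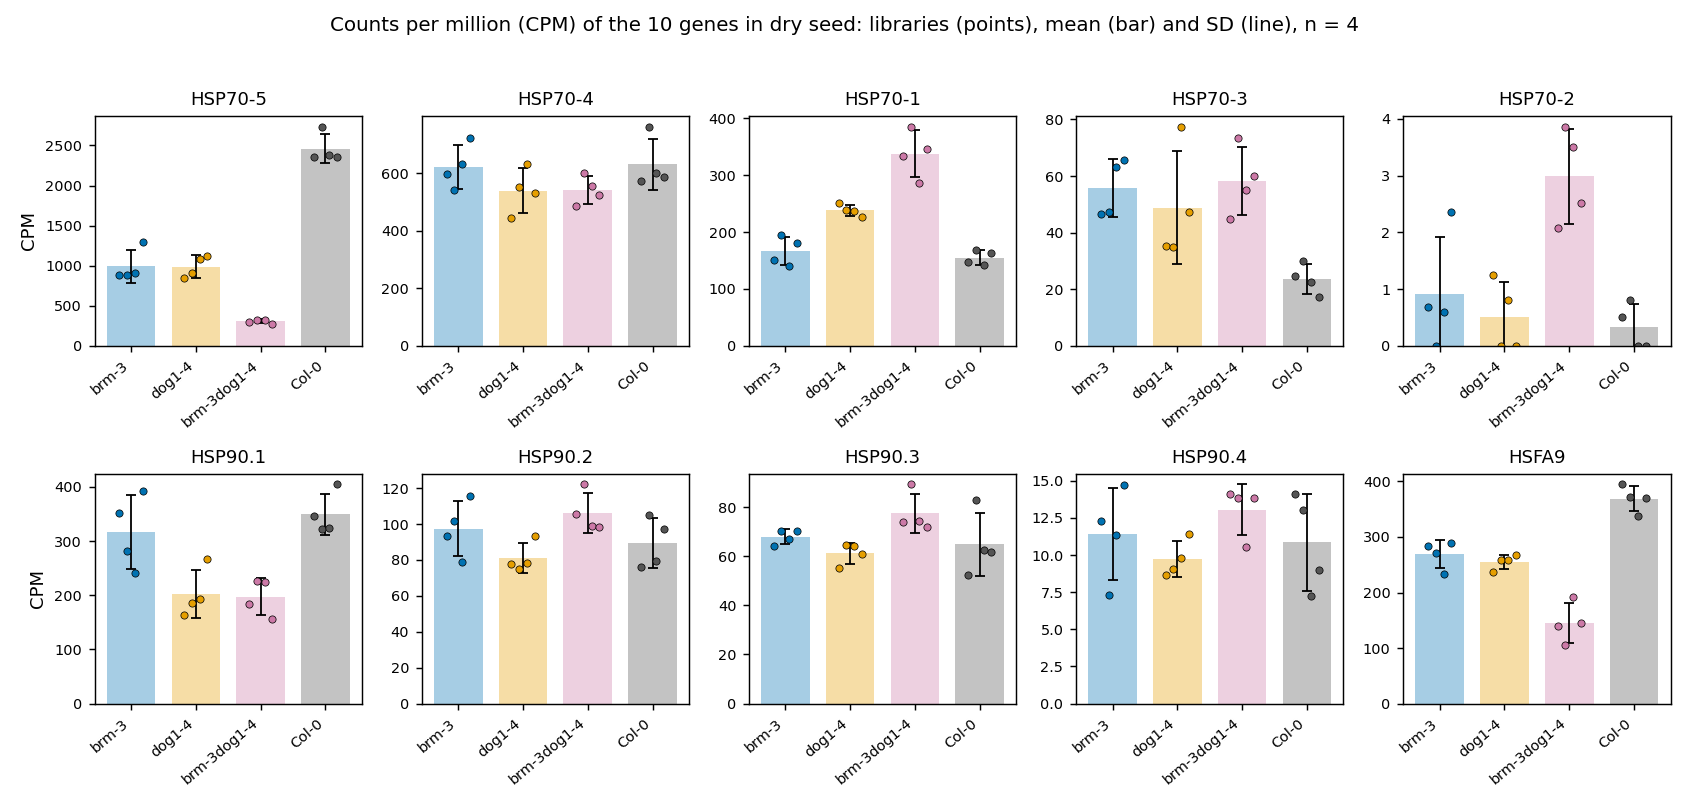
CPM of the 10 genes in each library (points), with the mean (bar) and SD (line) of 4 libraries per genotype, each panel on its own linear axis from 0. HSP70-5 fell to 307 CPM in brm-3dog1-4, against 2459 CPM in Col-0, while HSP70-1 reached 338 CPM in brm-3dog1-4, against 155 CPM in Col-0.

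HSP70-1, the constitutive HSC70-1, rose in the 2 genotypes that carry dog1-4. Its CPM were 151, 195, 141 and 181 in brm-3, 251, 239, 236 and 227 in dog1-4, and 334, 385, 286 and 347 in the double mutant, against 147, 169, 142 and 163 in Col-0. Libraries of brm-3 and Col-0 overlapped, every dog1-4 library lay above both, and every brm-3dog1-4 library lay above those of dog1-4. The transcript rose in dog1-4 (log2 fold change 0.62, SE 0.11, adjusted p = 6.95e-06) and in brm-3dog1-4 (1.13, SE 0.10, adjusted p = 1.56e-14). In brm-3 the log2 fold change against Col-0 was 0.11 with a 95% interval of -0.11 to 0.32 (adjusted p = 0.616). The double mutant was higher than brm-3 by 1.02 (adjusted p = 6.44e-13) and than dog1-4 by 0.51 (adjusted p = 5.14e-05). The interaction was 0.40 (95% interval 0.11 to 0.70, adjusted p = 0.0719). Its adjusted p was 0.0938 with DESeq2, and it passed the test with upper-quartile normalization, with at least 10 counts required in every library, without TMM, without both shallowest libraries, without replicate 2 of brm-3 and without replicate 3 of brm-3dog1-4.

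HSP70-3, a further cytosolic HSP70, had lower counts and rose in every mutant. Its CPM were 46.4, 47.3, 63.3 and 65.8 in brm-3, 35.4, 34.9, 77.4 and 47.3 in dog1-4, and 44.7, 73.6, 55.2 and 59.9 in brm-3dog1-4, against 24.7, 30.1, 22.5 and 17.36 in Col-0. All 12 mutant libraries lay above all 4 Col-0 libraries, and the mutants overlapped one another. The log2 fold change against Col-0 was 1.25 in brm-3 (SE 0.25, adjusted p = 0.00217), 1.06 in dog1-4 (SE 0.27, adjusted p = 0.00715) and 1.33 in the double mutant (SE 0.24, adjusted p = 0.000118). The double mutant did not pass the test against brm-3 (0.08, 95% interval -0.34 to 0.50) or against dog1-4 (0.27, 95% interval -0.19 to 0.72). Its interaction was -0.98 (95% interval -1.68 to -0.28, adjusted p = 0.0773), and the adjusted p was 0.000498 with no filter on low counts and 0.0398 with DESeq2. It was 0.0159 without replicate 1 of dog1-4 and 0.0184 without replicate 2 of brm-3dog1-4. Without replicate 3 of dog1-4, the highest library of that genotype, the double mutant was higher than dog1-4 by 0.58 (adjusted p = 0.0108).

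HSP70-4, a heat-inducible HSP70, passed the test against Col-0 in no mutant. Its CPM were 596, 541, 633 and 721 in brm-3, 444, 554, 631 and 531 in dog1-4, and 488, 603, 556 and 525 in the double mutant, against 572, 762, 602 and 588 in Col-0, and all genotypes overlapped. The log2 fold change against Col-0 had a 95% interval of -0.22 to 0.19 in brm-3, -0.44 to -0.01 in dog1-4 (adjusted p = 0.138, or 0.0376 without replicate 3) and -0.42 to -0.01 in brm-3dog1-4 (adjusted p = 0.0855). Without TMM its log2 fold change in brm-3dog1-4 was 0.35 (adjusted p = 0.000578), which lies below the shift of 0.58 of the median gene under that scaling.

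HSP70-2, the neighbour of HSP70-1, was close to the floor. It had 1, 0, 1 and 4 counts in brm-3, 2, 0, 1 and 0 in dog1-4, and 5, 12, 4 and 6 in the double mutant, against 1, 1, 0 and 0 in Col-0. The mean was 0.908 CPM in brm-3, 0.514 in dog1-4 and 2.99 in the double mutant, against 0.330 in Col-0. The double mutant and Col-0 did not overlap, and the two-sided exact permutation test of their difference gave p = 0.0286, the smallest that 70 regroupings of 4 against 4 libraries allow, or 0.0858 adjusted over the 3 mutants. The same exact test gave p = 0.457 for brm-3 and 0.657 for dog1-4. The gene neighbours HSP70-1 and shares 87.5% of its coding sequence with it, and what misassigned reads add to these counts was not tested.

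The makeup of the HSP70 counts changed with these genes. HSP70-5 gave 53.7% ± 2.33 of the summed CPM of the 5 HSP70 genes in brm-3, 54.4% ± 2.68 in dog1-4 and 24.6% ± 1.85 in the double mutant, against 75.3% ± 0.905 in Col-0 (SD, n = 4 each). HSP70-1 gave 9.19% in brm-3, 13.3% in dog1-4 and 27.0% in the double mutant, against 4.76% in Col-0. The sum of the 5 genes was 1837 ± 285 CPM in brm-3, 1818 ± 206 in dog1-4 and 1249 ± 96.8 in the double mutant, against 3269 ± 284 in Col-0. In brm-3dog1-4, HSP70-4 gave the largest share of the sum, 43.5%, and HSP70-5 that of the other 3 genotypes.

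**Figure D3:**
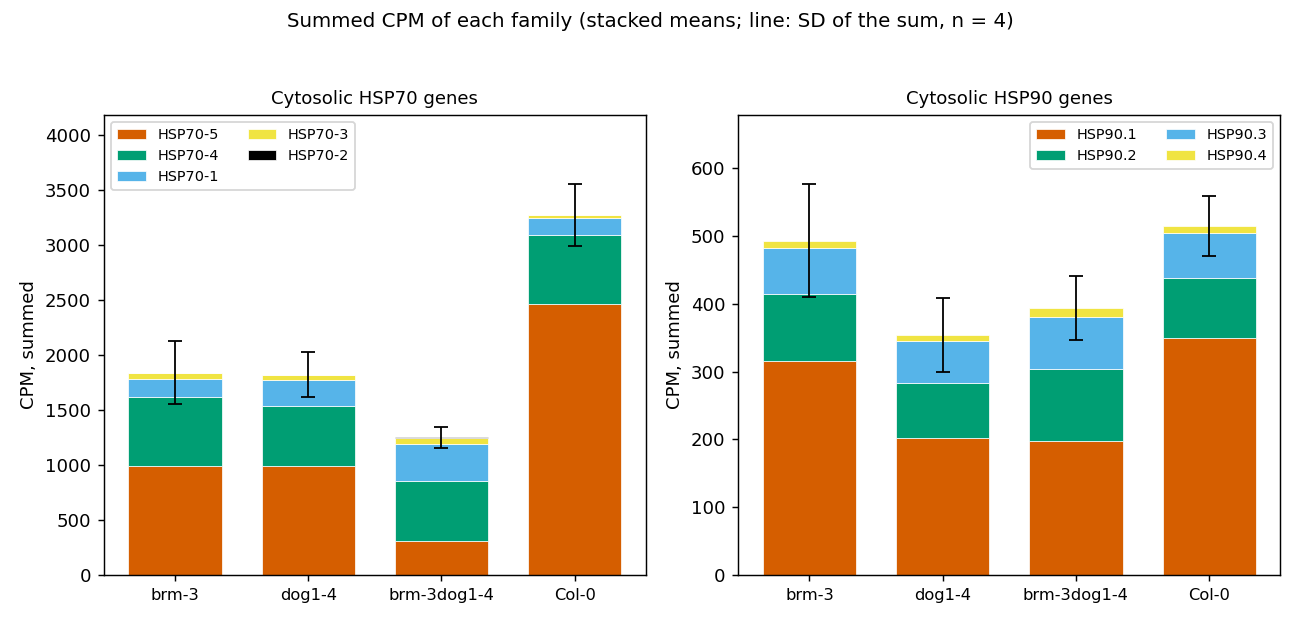
Summed CPM of the 5 HSP70 genes (left) and the 4 HSP90 genes (right) by genotype, with stacked means of the genes and the SD of the sum over 4 libraries; HSP70-2, with means under 3 CPM, is too small to be seen. The HSP70 sum was 1249 CPM in brm-3dog1-4, against 3269 CPM in Col-0. HSP70-5 alone differed by more than the sum, at 307 against 2459 CPM, while HSP70-1 was higher, at 338 against 155 CPM.

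HSP90.1, the heat-inducible cytosolic HSP90, fell in the 2 genotypes that carry dog1-4. Its CPM were 352, 281, 240.1 and 392 in brm-3, 164, 186, 193 and 266 in dog1-4, and 183, 226, 225 and 155 in the double mutant, against 346, 323, 323 and 404 in Col-0. The dog1-4 and brm-3dog1-4 libraries all lay below those of Col-0, and brm-3 overlapped with both Col-0 and dog1-4. The mean was 316 ± 68.5 CPM in brm-3, 202 ± 44.5 in dog1-4 and 197 ± 34.4 in the double mutant, against 349 ± 38.4 in Col-0 (SD, n = 4 each).

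The log2 fold change of HSP90.1 against Col-0 was -0.79 in dog1-4 (SE 0.17, adjusted p = 0.00316) and -0.83 in the double mutant (SE 0.17, adjusted p = 0.000525), and in brm-3 it was -0.15 with a 95% interval of -0.49 to 0.20 (adjusted p = 0.681). The double mutant was lower than brm-3 by a log2 fold change of -0.69 (adjusted p = 0.00332), and against dog1-4 the difference was -0.04 with an interval of -0.41 to 0.33. In a comparison added after these values were seen, dog1-4 was lower than brm-3 (-0.64, adjusted p = 0.0156), with an adjusted p of 0.0508 without replicate 3 of dog1-4. Without TMM the log2 fold change against Col-0 was -0.56 in dog1-4 (adjusted p = 0.0789) and -0.27 in the double mutant (adjusted p = 0.265), while the median gene stood at 0.22 and 0.58 under that scaling.

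The clustered HSP90 genes, which are expressed constitutively, had fewer counts than HSP90.1. HSP90.2 had 93.5, 102, 78.8 and 116 CPM in brm-3, 77.6, 74.9, 78.2 and 93.1 in dog1-4, and 106, 122, 99.0 and 98.4 in brm-3dog1-4, against 76.2, 105, 79.6 and 97.1 in Col-0. Every brm-3dog1-4 library lay above every dog1-4 library, and both overlapped with Col-0. HSP90.2 was higher in brm-3dog1-4 than in dog1-4 (log2 fold change 0.40, SE 0.12, adjusted p = 0.0101), but not without replicate 2 of the double mutant (adjusted p = 0.0626), and the comparison of brm-3dog1-4 with Col-0 missed the threshold (0.27, adjusted p = 0.0553). That comparison passed with upper-quartile normalization (adjusted p = 0.0193), with at least 10 counts in every library (0.0053), with only the 2 groups in the fit (0.0455), without both shallowest libraries (0.0493), without TMM (7.25e-07) and in 4 of the 16 fits that left out 1 library each, but not with DESeq2 (0.17).

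HSP90.3 ranged over 64.2 to 70.5 CPM in brm-3, 55.3 to 64.5 in dog1-4 and 72 to 89.3 in brm-3dog1-4, against 52.5 to 83.0 in Col-0. It rose in brm-3dog1-4 by a log2 fold change of 0.28 (adjusted p = 0.0489), and its range overlapped with that of Col-0. DESeq2 did not give this call (adjusted p = 0.155), and in 14 of the 16 fits that left out 1 library each it was not given, with an adjusted p of 0.304 without replicate 1 of Col-0 and 0.202 without replicate 2 of brm-3dog1-4. Against dog1-4 the double mutant was higher by 0.36 (adjusted p = 0.027), but the adjusted p was 0.0961 with DESeq2, 0.119 without replicate 1 of dog1-4, 0.0558 without replicate 4 of dog1-4 and 0.136 without replicate 2 of brm-3dog1-4. HSP90.4 was lowest, at 11.4 ± 3.09 CPM in brm-3, 9.74 ± 1.23 in dog1-4 and 13.1 ± 1.70 in the double mutant, against 10.8 ± 3.26 in Col-0, and passed the test in no comparison, with a 95% interval of -0.19 to 0.73 in brm-3dog1-4 against Col-0.

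The 4 HSP90 genes summed to 493 ± 83.9 CPM in brm-3, 354 ± 54.5 in dog1-4 and 394 ± 47.4 in the double mutant, against 515 ± 44.0 in Col-0 (SD, n = 4 each). HSP90.1 gave 63.8% of that sum in brm-3, 56.7% in dog1-4 and 49.9% in the double mutant, against 67.9% in Col-0.

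HSFA9, the heat shock factor, fell in every mutant and most in the double mutant. Its CPM were 283, 271, 233 and 289 in brm-3, 237, 258, 258 and 267 in dog1-4, and 140.0, 105, 192 and 145 in brm-3dog1-4, against 395, 372, 339 and 371 in Col-0. As for HSP70-5, Col-0 lay above every mutant library, the single mutants overlapped, and the double mutant lay below both. The mean was 269 ± 25.1 CPM in brm-3, 255 ± 13 in dog1-4 and 145 ± 35.7 in the double mutant, against 369 ± 23.1 in Col-0 (SD, n = 4 each).

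The log2 fold change of HSFA9 against Col-0 was -0.46 in brm-3 (SE 0.11, adjusted p = 0.00193), -0.54 in dog1-4 (SE 0.11, adjusted p = 0.000135) and -1.38 in the double mutant (SE 0.11, adjusted p = 8.2e-16). The double mutant was lower than brm-3 by -0.92 (adjusted p = 8.83e-10) and than dog1-4 by -0.84 (adjusted p = 3.64e-08). The interaction was -0.38 (95% interval -0.69 to -0.07, adjusted p = 0.119), and without replicate 3 of the double mutant, a shallow library with the highest HSFA9 level of that genotype, it was -0.52 (adjusted p = 0.00876). Without TMM the log2 fold change in brm-3dog1-4 was -0.82 (adjusted p = 1.98e-08). Reads of HSFA9 and of U3D cannot be told apart where the genes overlap.

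**Figure D4:**
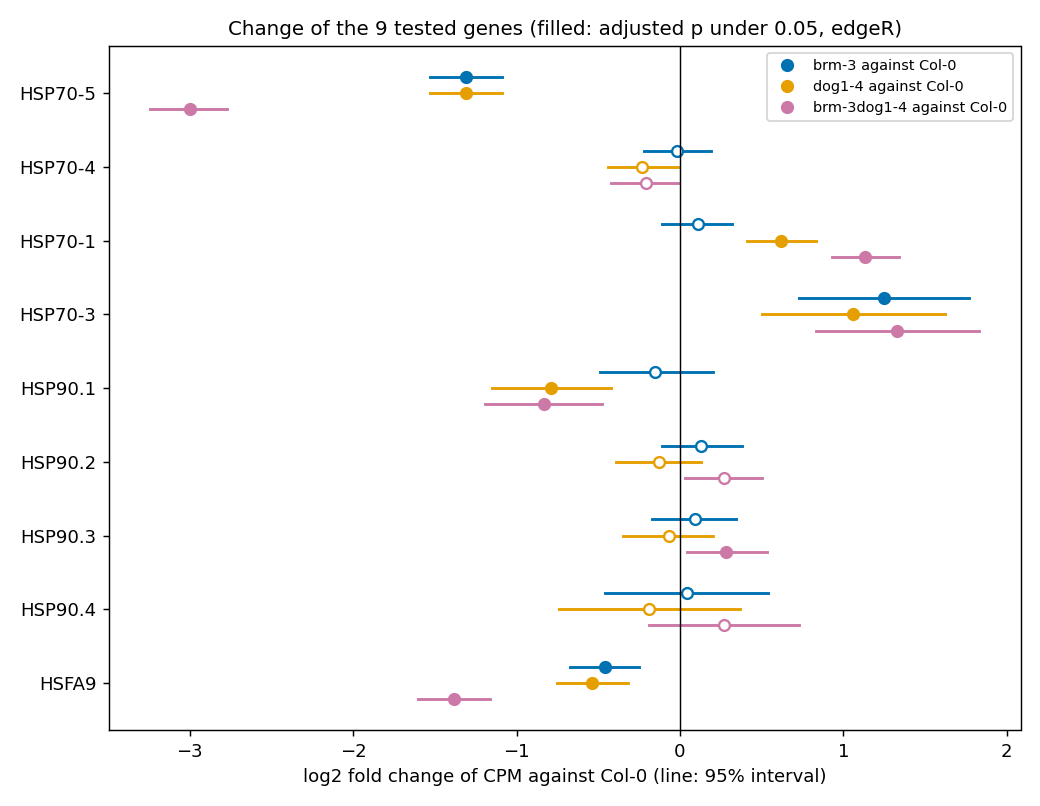
Log2 fold change of CPM against Col-0 (point) with its 95% interval (line) for the 9 tested genes in each of the 3 mutants. Filled points have an adjusted p under 0.05. HSP70-5 reached -3.0 and HSFA9 -1.38 in brm-3dog1-4, while the intervals of HSP90.4 include 0 in each mutant.

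Counted over the 9 tested genes, 1 rose and 2 fell in brm-3 against Col-0, where 5.22% of all tested genes rose and 5.02% fell. In dog1-4, 2 rose and 3 fell, where 9.84% of all tested genes rose and 8.58% fell. In brm-3dog1-4, 3 rose and 3 fell, where 22.8% rose and 23.3% fell. The counts in brm-3dog1-4 stand near that background. With an absolute log2 fold change over 1 also required, 2 of the 9 remained in brm-3 (HSP70-5 and HSP70-3), 2 in dog1-4 (the same genes) and 4 in the double mutant (these, HSP70-1 and HSFA9). The shares of all tested genes past both thresholds were 3.03% in brm-3, 6.24% in dog1-4 and 18.2% in the double mutant.

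Between mutants, 1 of the 9 was higher and 3 were lower in brm-3dog1-4 than in brm-3, where 18.5% of all tested genes were higher and 19.7% lower. Against dog1-4, 3 were higher and 2 lower in brm-3dog1-4, where 12.1% were higher and 15.4% lower. In the added comparison of dog1-4 with brm-3, HSP70-1 was higher and HSP90.1 lower, where 8.40% of all tested genes were higher and 8.03% lower. None of the 9 passed the edgeR test of the interaction, which 8.79% of all tested genes passed. At the looser unadjusted p under 0.05 the interaction of 4 of the 9 passed, namely HSP70-5, HSP70-1, HSP70-3 and HSFA9. DESeq2 called 1 at an adjusted p under 0.05. The shares of all tested genes at the looser threshold and with DESeq2 were not taken. These counts thus cannot be set against the 8.79%.

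Across the 16 libraries the log2 CPM of HSFA9 had a Pearson correlation of 0.94 with HSP70-5, 0.68 with HSP90.1 and -0.87 with HSP70-1. The libraries fall into the 4 genotypes, so these values mostly restate the genotype means. Within genotypes, after the genotype mean was taken out of each gene, the correlation with HSFA9 was 0.19 for HSP70-5, 0.29 for HSP90.1 and -0.35 for HSP70-1. Between chaperones it ranged within genotypes from 0.02 for HSP70-1 with HSP90.4 to 0.78 for HSP70-4 with HSP70-3. The next highest were 0.74 for HSP70-4 with HSP70-5, 0.73 for HSP70-4 with HSP90.3 and 0.68 for HSP70-1 with HSP90.2. Replicate 2 of Col-0 was the highest Col-0 library for HSP70-4, HSP70-3 and HSP70-5. What single libraries add to these correlations was not tested. All the correlations are descriptions over 16 libraries that share depth and scaling.

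**Figure D5:**
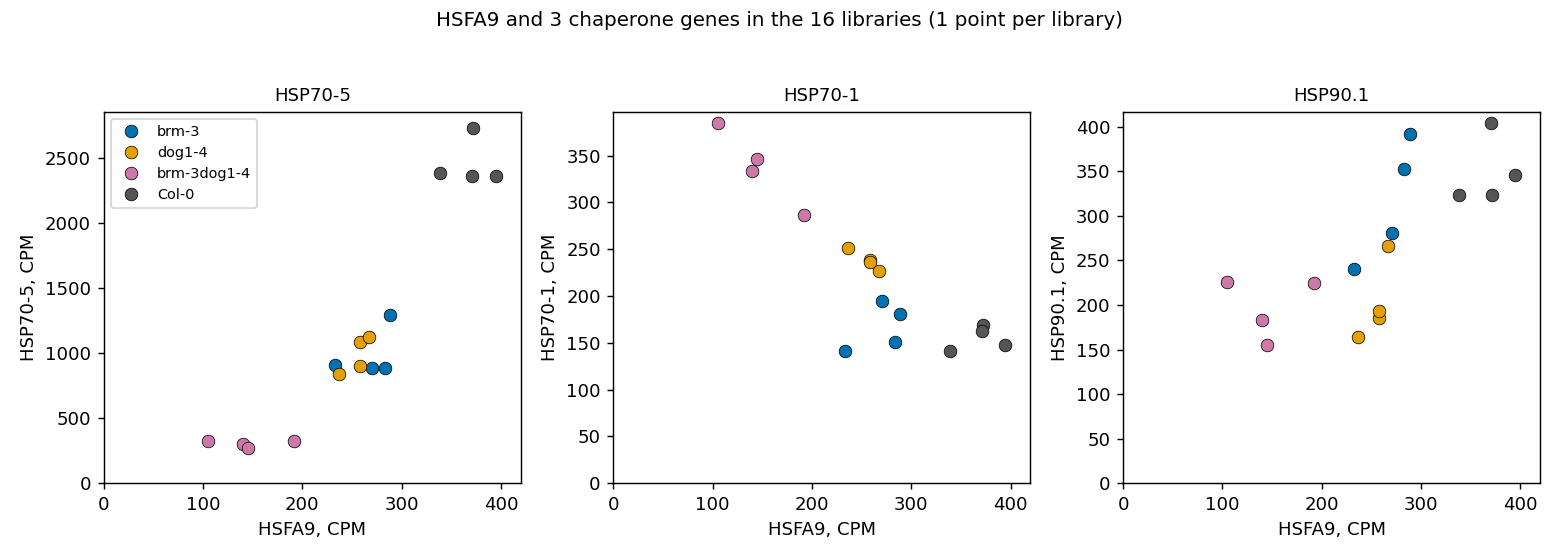
CPM of HSFA9 (horizontal axis) and of HSP70-5, HSP70-1 and HSP90.1 (vertical axes, linear from 0) in the 16 libraries, 1 point per library. The brm-3dog1-4 libraries lie apart at 105 to 192 CPM of HSFA9 and those of Col-0 at 339 to 395 CPM, while the single mutants overlap between them.

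The genes most like HSFA9 over the 16 libraries were NET3A, of the NETWORKED family of actin-binding proteins (r = 0.982), AT1G72100 (r = 0.973) and AT3G15260 (r = 0.972). NET3A averaged 292 CPM in brm-3, 291 in dog1-4 and 179 in the double mutant, against 369 in Col-0, with the same order of genotype means as HSFA9. HSP90.1 was most like AGL94, a MADS-box factor (r = 0.914), NTMC2T6.2 (r = 0.903) and AT3G53040 (r = 0.895). AGL94 averaged 34.6 CPM in brm-3, 6.90 in dog1-4 and 4.85 in the double mutant, against 34.4 in Col-0. The highest r for HSP70-4 were lower, with PEP, an RNA-binding protein gene (r = 0.832), PDX1.2, a vitamin B6 biosynthesis gene (r = 0.825), and VPS46.2 (r = 0.822). All these r were picked as the highest over all tested genes, in libraries that fall into the 4 genotypes. Genotype means thus enter them, and HSP70-4 passed the test against Col-0 in no mutant.

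Other genes of the chaperone system were taken from 5 lists of 64 genes, of which 61 had a count and 47 were tested. In brm-3, 1 of the 47 rose and 8 fell, in dog1-4, 1 rose and 9 fell, and in brm-3dog1-4, 6 rose and 14 fell. Over all tested genes 5.22% rose and 5.02% fell in brm-3, 9.84% rose and 8.58% fell in dog1-4, and 22.8% rose and 23.3% fell in brm-3dog1-4, so that in the double mutant the share of list genes that fell stands near the background and the share that rose below it. Their median change stood at -0.13 on the log2 scale in brm-3, -0.17 in dog1-4 and -0.16 in the double mutant, against 0.00, 0.00 and 0.01 for all tested genes.

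The 7 genes around HSFA9 function held 5 of the 12 list genes past both thresholds in brm-3dog1-4, where 18.2% of all tested genes passed both. In that mutant 2 of the 7 rose and 4 fell with a median of -1.13, where 22.8% of all tested genes rose and 23.3% fell. In brm-3, 0 of the 7 rose and 4 fell, where 5.22% of all rose and 5.02% fell. In dog1-4, 1 rose and 5 fell, where 9.84% of all rose and 8.58% fell. The class I small heat shock protein gene HSP17.4A averaged 2731 CPM in brm-3, 2592 in dog1-4 and 1170 in the double mutant, against 4353 in Col-0. On the log2 scale it changed by -0.67 in brm-3, -0.75 in dog1-4 and -1.90 in the double mutant (adjusted p = 7.19e-23 in the double mutant). The class II gene HSP17.6A changed by -0.39, -0.59 and -1.36 in the same order of mutants, and HSP17.6II by -1.96, -3.44 and -2.11, each past the test. HSP17.6II had few counts, with means of 6.36 CPM in brm-3, 1.875 in dog1-4 and 5.62 in the double mutant, against 25.4 in Col-0. Its dog1-4 mean lay within the floor of 0.964 to 3.87 CPM, so the size of that change is poorly resolved. HSP101, the disaggregase that works with HSP70, averaged 383 CPM in brm-3, 323 in dog1-4 and 274 in the double mutant, against 599 in Col-0, and its log2 fold change was -1.13 in brm-3dog1-4 (adjusted p = 5.49e-15). ABI3, the B3 factor upstream of HSFA9, was at 108 CPM in brm-3 (log2 fold change 0.06, adjusted p = 0.809) and rose in dog1-4 (0.37, adjusted p = 0.011) and in brm-3dog1-4 (0.48, adjusted p = 0.000137). HSBP, which binds heat shock factors, rose in brm-3dog1-4 by 1.03 (adjusted p = 2e-04).

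Of the 12 tested heat shock factor genes other than HSFA9, 1 rose and 1 fell in brm-3, where 5.22% and 5.02% of all tested genes did. In dog1-4, 0 rose and 1 fell, where 9.84% and 8.58% of all did. In the double mutant 3 rose and 3 fell, near the 22.8% and 23.3% of all tested genes. HSFA4A averaged 19.3 CPM in brm-3, 12.3 in dog1-4 and 24.0 in the double mutant, against 8.70 in Col-0, and rose in brm-3 (log2 fold change 1.13) and in brm-3dog1-4 (1.49, adjusted p = 7.46e-08). HSFA2, which sustains the heat response, rose in brm-3dog1-4 by 1.26 (adjusted p = 2.02e-05), and HSFB2A by 1.43 (adjusted p = 3.54e-05). HSFA1A, one of the master factors of the heat response, fell in dog1-4 (-0.94, adjusted p = 0.0458) and in brm-3dog1-4 (-1.20, adjusted p = 0.00103). The levels of these factors were low, at 4.45 to 24.0 CPM in brm-3dog1-4, against 145 CPM for HSFA9. HSFA1E had more counts than HSFA1A, at 76.7 CPM in brm-3dog1-4 and 69.9 in Col-0. It passed the test neither in dog1-4 (-0.08, adjusted p = 0.745) nor in brm-3dog1-4 (0.11, adjusted p = 0.472). HSFA1B fell in brm-3dog1-4 (-0.43, adjusted p = 0.0117) but not in dog1-4 (-0.12, adjusted p = 0.665).

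Among 19 tested co-chaperone genes of HSP70 and HSP90, none rose in any mutant. Over all tested genes 5.22% rose in brm-3, 9.84% in dog1-4 and 22.8% in the double mutant. Of the 19, 2 fell in brm-3 and 3 in dog1-4, where 5.02% and 8.58% of all tested genes fell. In the double mutant 5 fell, near the 23.3% of all tested genes that fell there. FES1A, which protects cytosolic HSP70, fell in dog1-4 (-0.74, adjusted p = 8.06e-07) and in brm-3dog1-4 (-1.08, adjusted p = 1.14e-12), with -0.13 in brm-3 (adjusted p = 0.50). HOP3, which links HSP70 to HSP90, averaged 79.4 CPM in brm-3, 46.8 in dog1-4 and 53.4 in the double mutant, against 113 in Col-0. On the log2 scale HOP3 changed by -0.51 in brm-3, -1.27 in dog1-4 and -1.12 in the double mutant, past the test in each. BAG6, a BAG-domain co-chaperone gene, changed by -0.87 in brm-3, -1.53 in dog1-4 and -1.65 in the double mutant. The other HSP70 and HSP110 genes, 7 of 13 tested, held 1 that rose and 2 that fell in brm-3dog1-4, each with an absolute log2 fold change under 1, and the 2 tested organellar HSP90 genes passed the test in no mutant. A few other changes were named after their values were seen. HSP70-14 rose in brm-3dog1-4 by 0.64 on the log2 scale, and BIP1, an HSP70 of the endoplasmic reticulum, fell in brm-3 (-0.97, adjusted p = 0.0291). The heat shock factor gene HSFC1 fell in brm-3 (-1.59, adjusted p = 1.89e-06) and had -0.26 in brm-3dog1-4 (adjusted p = 0.267). CHIP, a ubiquitin ligase that acts on chaperone clients, fell in brm-3dog1-4 (-0.67, adjusted p = 7.1e-05), and so did mtHsc70-2, HSP70T-2, HSFA1B, HSFA5 and HIP1, by -0.43 to -0.89.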

How the data were processed

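The authors deposited 16 tables of counts, whole numbers of reads per locus, not normalized. The submitters' processing notes name STAR 2.7.8a, DESeq2 and TAIR10. The counting program and the use of strand and of molecular identifiers are not given in the sources used here, and molecular duplicates may affect precision. Genotype and replicate came from the labels. All 16 libraries entered 1 edgeR 4.0.16 fit (R 4.3.3) with a mean per genotype, TMM, filterByExpr and the robust quasi-likelihood test, adjusted over all tested genes. Log2 CPM used a prior count of 2. HSP70-2, which failed the filter, had an exact permutation test. Loci, promoters and sequences came from TAIR10.1 of RefSeq, whose annotation may differ from the authors'. The script was tested on simulated data.

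The members and lists were chosen with earlier results of these data known, although the rule for the members, a set of locus identifiers, uses no measured value. Named were the 10 genes, up to 5 genes per list past both thresholds in brm-3dog1-4, ABI3, HSP101, DOG1, BRM, and the 3 genes most like HSFA9, HSP70-4 and HSP90.1. Alternatives were other normalizations, filters, DESeq2 1.42.0, only the 2 groups compared, a replicate block and each library left out. Scaling without TMM, leaving out both shallowest libraries, and dog1-4 against brm-3 were chosen after seeing the data. Other tissues and assays were not used here.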

Additional observations from a re-analysis of the deposited data

Results flagged for a closer look

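A single library stood apart from the other 3 of its genotype in 5 of 40 gene and genotype groups, where chance flags about 1 in 20 groups. Replicate 2 of Col-0 was high for HSP70-4, at 762 CPM against 572 to 602 CPM in the others, and for HSP70-5, at 2733 CPM against 2360.3 to 2381 CPM. Replicate 4 of brm-3 was high for HSP70-5, at 1292 CPM against 882 to 905 CPM. In brm-3dog1-4, replicate 2 was high for HSP90.3, at 89.3 CPM against 72 to 74.5 CPM, and replicate 3, a shallow library, was low for HSP90.4, at 10.5 CPM against 13.8 to 14.1 CPM.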

How the results depend on the processing

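Of 1559 values of member log2 fold changes under the alternatives, 1489 kept their side of the threshold, 39 passed it newly and 29 lost it. A further 2 were reversals, a change of direction with a value past the test. The 1489 include 46 values that changed sign with neither value past the test. Both reversals were of HSP70-4 without TMM, at 0.35 in brm-3dog1-4 against Col-0 and 0.34 against brm-3. Without TMM the median gene stood at 0.56 in brm-3dog1-4 against brm-3, 0.37 against dog1-4 and 0.31 for the interaction. It stood at 0.2 in dog1-4 against brm-3 and at 0.58 in brm-3dog1-4 against Col-0. The share of all tested genes called without TMM was not taken, so the member and list counts there have no background. Without TMM, 8 of the 9 genes changed in brm-3dog1-4 against brm-3 and 8 against dog1-4. The number was 3 for the interaction and 1 in dog1-4 against brm-3, and 32 of the genes of the 5 lists changed in brm-3dog1-4. With an absolute log2 fold change over 1 these counts were 2 in dog1-4 against Col-0, 2 in brm-3dog1-4 against brm-3, 1 against dog1-4 and 0 in dog1-4 against brm-3, and for the lists 3 in brm-3, 3 in dog1-4 and 12 in the double mutant. The interaction, with 0 of 9 in the report, had 1 with upper-quartile normalization, 1 with no filter, 1 with at least 10 counts in every library, 1 with DESeq2 and 2 without both shallowest libraries, which also left 1 in dog1-4 against brm-3. With at least 10 counts in every library, which tests 28 genes of the lists, 5 changed in brm-3 and 11 in brm-3dog1-4.

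Leaving out each library in turn gave 3 to 3 changed genes in brm-3, 5 to 6 in dog1-4, 5 to 7 in brm-3dog1-4, 4 to 4 in brm-3dog1-4 against brm-3, 3 to 6 against dog1-4, 0 to 2 for the interaction and 2 to 2 in dog1-4 against brm-3. The lowest count against dog1-4, 3, was without replicate 2 of brm-3dog1-4. For the lists the ranges were 7 to 10, 9 to 11 and 19 to 22. Replicate numbers are shared by the genotypes, but same-numbered libraries did not deviate together (r of -0.035 to 0.072, mean 0.02), so they share only a number. With the replicate block, 2 of the 9 genes passed the interaction, HSP70-1 (0.39, adjusted p = 0.0435) and HSP70-3 (-0.93, adjusted p = 0.026), and against Col-0 in brm-3dog1-4 HSP70-4 (-0.21, adjusted p = 0.0469) and HSP90.2 (0.26, adjusted p = 0.0442) passed newly. The block changed no other call of a member, and no other count moved by over 1.5 times. The depth leaves HSP70-2 and HSP90.4 poorly resolved.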
